A study of Mus musculus with 4 samples.

Results

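Genes that build cholesterol and fatty acids were followed across the cells of mouse tumors. The set holds 33 genes of the 32285 in the deposited gene table, taken by name from the table's symbol column. It has 7 genes of the mevalonate pathway (Acat2, Hmgcs1, Mvk, Pmvk, Mvd, Idi1 and Fdps), 11 that turn its product into cholesterol by way of squalene (Fdft1, Sqle, Lss, Cyp51, Tm7sf2, Msmo1, Nsdhl, Hsd17b7, Ebp, Sc5d and Dhcr7), 6 regulators and a sterol carrier (Insig1, Insig2, Srebf1, Srebf2, Scap and Stard4), and 9 of fatty acid synthesis (Acly, Acaca, Fasn, Scd1, Scd2, Elovl5, Elovl6, Fads1 and Fads2). The first 18 are called the sterol arm below, and the last 9 the fatty acid arm. The tumors were B16F10, a melanoma line, or MC38, a colon carcinoma line. They grew in untreated wild-type (WT) or Lrrc25-/- hosts and were taken 14 days (B16F10) or 26 days (MC38) after inoculation. The deletion is in the host, and the labels give no edit of the tumor lines. Each of the 4 groups is 1 single-cell library made from a pool of 3 mice. Bead-isolated CD45+ leukocytes were mixed 5 to 1 with the starting suspension. The share of tumor cells in a library is therefore not their share in the tumor.

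Cholesterol synthesis starts from acetyl-CoA, passes through mevalonate and the isoprenoids, and closes a ring at lanosterol that a chain of enzymes trims to cholesterol. Srebf2 encodes the transcription factor that raises the genes of this pathway when sterols in the endoplasmic reticulum run low, with Scap as its escort and the Insig proteins as its brake. Srebf1 encodes the related factor best known for the fatty acid genes. Dividing cells need both kinds of lipid for new membrane, while tumor macrophages also take up lipid and export sterol through genes controlled by the liver X receptors (LXR).

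Levels are given as CPM, the UMI count of a gene over all UMIs of a cell class in a library on the usual CPM scale, where a UMI marks 1 captured RNA molecule. Values of 4 libraries stand in the order WT B16F10, Lrrc25-/- B16F10, WT MC38, Lrrc25-/- MC38. Cells were put in classes by gates on marker genes that are not among the 33. Class comparisons paired the classes within each library. Their p-values set the mean class difference against its spread over the 4 libraries, which are 4 different groups. A gene was called at an adjusted p under 0.05. The kit reads transcript ends, so levels are compared between cells and not between genes. The counting tool is not given in the sources used here, so the split of molecules between the close paralogs Scd1 and Scd2, or Fads1 and Fads2, is uncertain.

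The libraries held 10490, 13036, 18545 and 17661 barcodes and 138841749, 122558030, 105338548 and 118098009 UMIs. Lrrc25 in macrophages measured 166.2, 4.87, 96.5 and 2.14 CPM, so both Lrrc25-/- libraries were low, as their labels say. Any 2 libraries shared 96 to 247 barcode sequences, at most 1.40% of the smaller library. The libraries of the tumor models stood apart as wholes. In macrophages the leukocyte gene Ptprc measured 108.5 and 132.4 CPM in B16F10 against 662.5 and 584.4 CPM in MC38, and the median mitochondrial share was 0.278% and 0.541% against 2.67% and 2.49%. Cells gated as tumor cells numbered 2948, 1861, 643 and 328, and macrophages 3255, 3568, 8168 and 7536. Tumor marker RNA was also counted in other cells, and its source was not tested. The summed tumor markers of macrophages, whose gate drops cells rich in them, came to 3.33%, 1.70%, 1.18% and 1.28% of their level in tumor cells.

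RefSeq promoter windows (GRCm38.p6, 250 bases before to 50 after an annotated start) were found for 26 of the 33 genes. Of these, 15 belong to the sterol arm. The letters CCAAT, which the factor NF-Y binds, stood on either strand in 14 of those 15 (93.3%), against 42.8% of the 7218 genes measured in the tumor cells of either model that have a window and 41.1% of all 27025 genes in the table. In the fatty acid arm they stood in 3 of 6 (50.0%). The sterol response letters TCACNCCAC, searched on both strands, stood in 1 of the 26 genes, Hmgcs1 (3.85%), at position -137 from the start, against 1.37% of genes measured in tumor cells and 1.44% of all. The letters CACGTG were in 3 of the 15 (20%; 12.4% of genes measured in tumor cells, 8.09% of all), and GGGCGG was in 14 of the 15 (93.3%; 72.4% of genes measured in tumor cells, 38.2% of all). These are matches of letters and not shown sites. Windows of 5 genes are printed 5′ to 3′ along the gene: Hmgcs1, Idi1 and Msmo1 as sterol arm genes that rose in tumor cells, Insig1 as a regulator and Fasn for the fatty acid arm. Capitals mark CCAAT, its reverse complement ATTGG, and in Hmgcs1 also TCACCCCAC.
Hmgcs1, chr13:119690101-119690400, plus strand: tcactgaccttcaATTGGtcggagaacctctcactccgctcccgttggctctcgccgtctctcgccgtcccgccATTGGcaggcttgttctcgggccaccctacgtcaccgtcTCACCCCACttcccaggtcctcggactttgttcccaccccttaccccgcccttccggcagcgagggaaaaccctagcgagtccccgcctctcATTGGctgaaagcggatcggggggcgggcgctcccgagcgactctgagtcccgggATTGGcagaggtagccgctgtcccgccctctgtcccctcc
Idi1, chr13:8885356-8885655, plus strand: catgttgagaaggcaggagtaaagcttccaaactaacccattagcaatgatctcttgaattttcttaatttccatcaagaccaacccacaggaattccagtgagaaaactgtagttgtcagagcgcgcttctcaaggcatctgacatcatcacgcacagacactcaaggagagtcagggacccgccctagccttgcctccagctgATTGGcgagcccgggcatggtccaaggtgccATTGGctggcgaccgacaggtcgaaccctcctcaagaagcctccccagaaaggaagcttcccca
Msmo1, chr8:64733529-64733828, minus strand: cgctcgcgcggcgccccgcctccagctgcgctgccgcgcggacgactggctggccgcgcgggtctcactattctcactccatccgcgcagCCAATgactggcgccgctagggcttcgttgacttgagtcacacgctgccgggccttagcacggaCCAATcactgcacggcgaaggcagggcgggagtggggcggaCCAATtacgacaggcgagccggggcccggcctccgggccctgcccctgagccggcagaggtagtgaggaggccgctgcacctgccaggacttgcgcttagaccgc
Insig1, chr5:28071162-28071461, plus strand: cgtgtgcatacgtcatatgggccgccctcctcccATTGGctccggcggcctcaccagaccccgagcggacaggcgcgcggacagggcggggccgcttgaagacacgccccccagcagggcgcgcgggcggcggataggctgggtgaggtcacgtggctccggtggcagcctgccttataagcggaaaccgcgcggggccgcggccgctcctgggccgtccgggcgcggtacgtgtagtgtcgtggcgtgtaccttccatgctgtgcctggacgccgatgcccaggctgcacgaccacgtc
Fasn, chr11:120824498-120824797, minus strand: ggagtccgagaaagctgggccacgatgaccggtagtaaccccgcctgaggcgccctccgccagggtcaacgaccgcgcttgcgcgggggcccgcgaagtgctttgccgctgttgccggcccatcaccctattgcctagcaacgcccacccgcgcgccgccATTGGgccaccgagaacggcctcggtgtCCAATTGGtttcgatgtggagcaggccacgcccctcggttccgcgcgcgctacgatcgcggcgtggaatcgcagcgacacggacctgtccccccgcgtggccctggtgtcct

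Tumor cells carried the most sterol and fatty acid synthesis RNA of the classes gated. Summed over the sterol arm they measured 1722, 1524, 1040 and 1465 CPM. Conventional dendritic cells came next with 992, 771, 473 and 496 CPM, and migratory dendritic cells had 912, 773, 444 and 513 CPM, a difference smaller than the spread between libraries. In every library the tumor cells lay above both. Treg measured 742, 644, 453 and 328 CPM, monocytes 713, 538, 404 and 355 CPM, and CD8 T cells 564, 495, 409 and 313 CPM. These 3 classes overlapped across libraries. Macrophages, with 389, 384, 299 and 340 CPM, and NK cells, with 465, 366, 297 and 248 CPM, had the lowest means of these classes, and their values overlapped those of CD8 T cells. The fatty acid arm summed to 463, 473, 398 and 461 CPM in tumor cells, against 124, 120, 165 and 152 CPM in macrophages and 146, 153, 289 and 231 CPM in Treg.

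**Figure D1:**
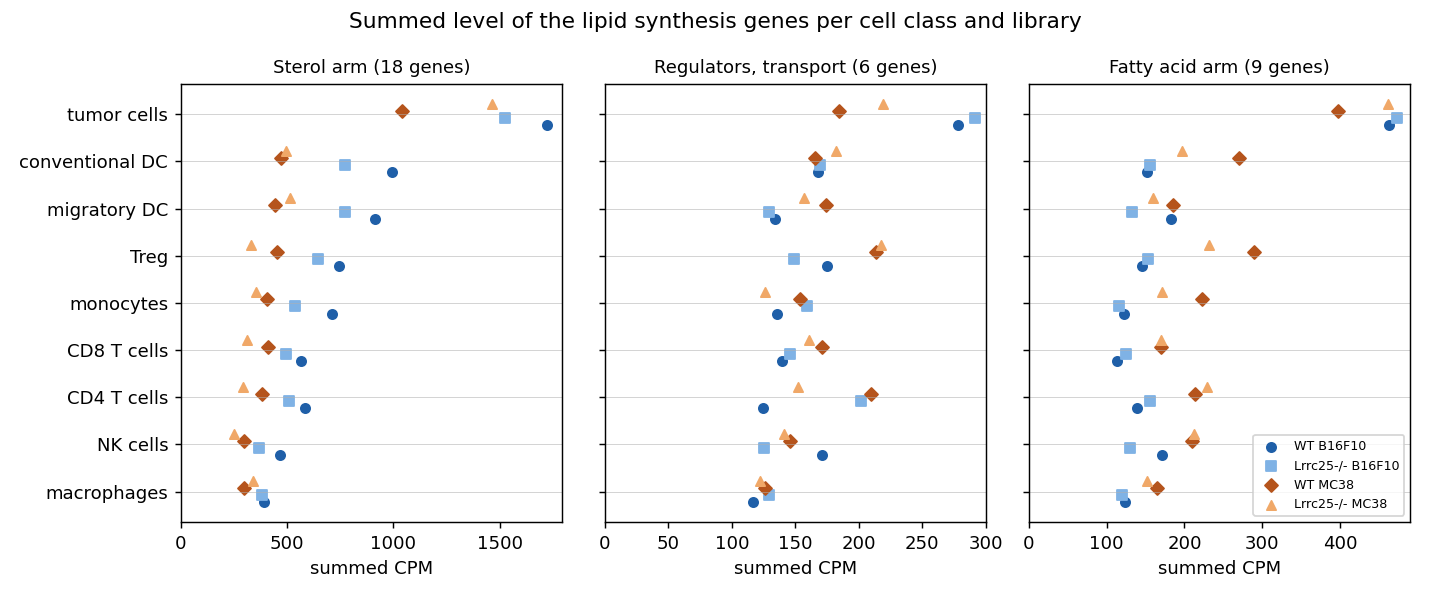
Summed level (CPM) of the sterol arm, the regulators and the fatty acid arm per cell class, 1 point per library. Tumor cells stand highest in each library for the sterol and fatty acid arms, while for the regulators the tumor cells of WT MC38 (184 CPM) lie below its Treg (213 CPM) and CD4 T cells (209.6 CPM).

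Set against macrophages of the same library, tumor cells had higher levels of 25 of the 33 genes and lower levels of none (edgeR quasi-likelihood test, Benjamini-Hochberg adjusted p under 0.05). Of all 16664 genes tested, 23.2% were higher, 22.4% lower and 45.6% changed in either direction. The median log2 fold of the 33 genes was 1.34, against 0.07 over all genes tested. By role, 6 of 7 mevalonate genes, 9 of 11 genes from squalene to cholesterol, 4 of 6 regulators and 6 of 9 fatty acid genes rose. With library totals in place of TMM scaling the median of all genes was 0.37, and the calls became 26 higher and 0 lower among the 33 genes, and 5244 higher and 3012 lower among all genes in place of 3867 and 3733.

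Within the mevalonate pathway, Fdps, which makes farnesyl diphosphate, measured 568, 522, 251 and 409 CPM in tumor cells and 81.2, 79.8, 26.3 and 31.8 CPM in macrophages. Its log2 fold was 2.81 (SE 0.17, edgeR adjusted p 0.00035). Hmgcs1, which makes the precursor HMG-CoA, measured 70.3, 58.3, 126 and 161 CPM against 17.8, 18.6, 30.5 and 25.4 CPM, a log2 fold of 1.78 (SE 0.18, edgeR adjusted p 0.0015). For both genes every tumor value lay above every macrophage value. Acat2, which joins acetyl-CoA units, rose by 2.76 on the log2 scale and Idi1, which isomerises isopentenyl diphosphate, by 2.17. Mvd, the decarboxylase, and Mvk, the first kinase, rose by 1.22 and 0.82. Pmvk, the kinase after Mvk, did not pass. It measured 88.0, 68.9, 21.2 and 35.1 CPM in tumor cells against 40.5, 33.2, 42.8 and 79.9 CPM in macrophages, so it was higher in tumor cells of both B16F10 libraries and lower in those of both MC38 libraries (log2 fold -0.30, edgeR adjusted p 0.712).

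From squalene to cholesterol, Sqle, the squalene epoxidase, measured 80.9, 75.4, 84.1 and 106 CPM in tumor cells and 18.4, 15.1, 17.0 and 16.3 CPM in macrophages. Tumor values and macrophage values were each close together in the 4 libraries, and the log2 fold was 2.06 (SE 0.13, edgeR adjusted p 0.000421). Lss, which closes the ring, rose by 2.42 and Fdft1, the squalene synthase, by 2.38 on the log2 scale. Cyp51, the lanosterol demethylase, rose by 2.13, Msmo1 by 1.92, Nsdhl by 1.77, Hsd17b7 by 1.52 and Sc5d by 1.34, and Dhcr7, the last reductase here, by 1.02. Ebp, a sterol isomerase, measured 128, 110, 49.0 and 50.6 CPM against 79.7, 80.3, 44.4 and 51.7 CPM (log2 fold 0.01) and Tm7sf2 had a log2 fold of -0.10. Neither passed the test.

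The regulators moved less. Insig1 measured 112, 120, 40.8 and 42.9 CPM in tumor cells and 39.0, 50.9, 26.3 and 21.5 CPM in macrophages, a log2 fold of 0.80 (SE 0.25, edgeR adjusted p 0.0488). Srebf2 measured 72.7, 70.3, 71.4 and 98.6 CPM against 31.0, 30.9, 48.1 and 48.3 CPM, a log2 fold of 0.70 (SE 0.21, edgeR adjusted p 0.0468). Insig2 rose by 0.78 and Stard4, a sterol carrier, by 0.75. Scap (log2 fold 0.60, adjusted p 0.357) and Srebf1 (log2 fold -0.33, adjusted p 0.385) did not pass the edgeR test. Srebf1 measured 19.6, 19.8, 13.9 and 11.1 CPM in tumor cells and 14.6, 16.1, 17.2 and 16.5 CPM in macrophages, so the models differed in direction.

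Among the fatty acid genes Scd1, a desaturase that makes oleic acid, showed the largest fold of the 33. It measured 31.4, 31.8, 48.8 and 58.6 CPM in tumor cells and 1.61, 0.962, 2.09 and 2.36 CPM in macrophages, a log2 fold of 4.32 (SE 0.20, edgeR adjusted p 0.000189). Its tumor level was 19.6, 33.1, 23.4 and 24.8 times its macrophage level. Tumor marker RNA counted in macrophages, given above, was not subtracted. Its related gene Scd2 measured 169, 178, 59.8 and 96.2 CPM against 16.8, 16.7, 18.8 and 15.0 CPM (log2 fold 2.48, SE 0.42, edgeR adjusted p 0.00777). Fads2, a desaturase of polyunsaturated fatty acids, rose by 3.08, Elovl6, an elongase of palmitic acid, by 2.89, and Fasn, the fatty acid synthase, by 2.23. Fasn measured 67.6, 66.4, 30.8 and 25.2 CPM against 8.45, 7.36, 8.30 and 6.02 CPM, and the groups did not overlap. Acaca, the carboxylase that supplies malonyl-CoA, rose by 0.77. Acly (log2 fold 0.43), Fads1 (-0.18) and Elovl5 (-0.30) did not pass.

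**Figure D2:**
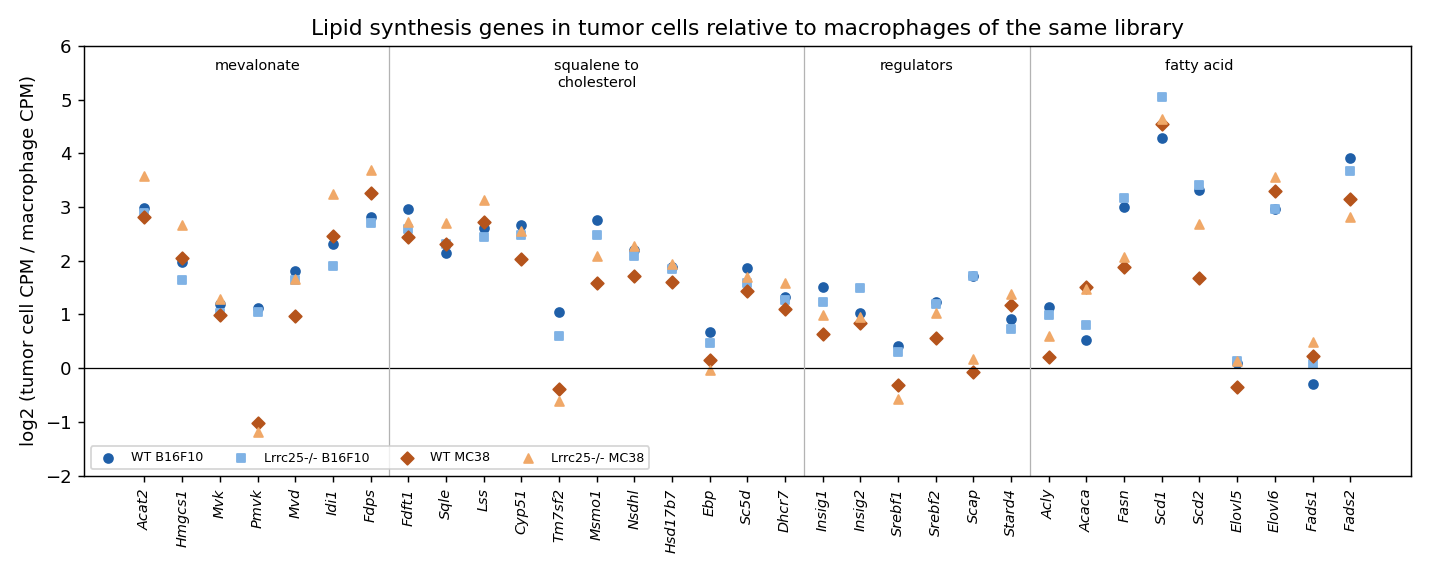
Log2 ratio of tumor cell CPM to macrophage CPM for each of the 33 genes, 1 point per library. In 26 genes all 4 libraries lie above 0, and Pmvk, Tm7sf2 and Srebf1 lie above 0 in the B16F10 libraries and below it in the MC38 libraries.

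Other genes of these pathways did not move as a block. Of 9 tested sterol accessory genes 1 was higher in tumor cells (Ggps1, log2 fold 0.58) and 4 were lower, namely the lysosomal lipase Lipa (-3.40), the lysosomal sterol carrier Npc2 (-2.21), the electron donor Por (-2.06) and Soat1 (-1.65), which esterifies sterol for storage. Of the 6 LXR-linked genes none was higher and 4 were lower, the transporters Abca1 (-5.48) and Abcg1 (-5.62), the ubiquitin ligase Mylip (-2.47) and the receptor Nr1h3 (-5.46). Of 12 fatty acid accessory genes 5 were higher, led by malic enzyme Me1 (4.20), and Elovl1 was lower. Tumor cells were deeper than macrophages (medians of 25394, 17020, 16723 and 19176 UMIs against 8260, 9143, 4437 and 6247) and more of them were cycling (68.2%, 48.8%, 68.0% and 67.1% against 31.2%, 22.8%, 12.6% and 13.6%). With cycling cells of both classes alone, 26 of the 33 genes were called, against 44.8% of all genes tested. Within B16F10 libraries alone 31 were called (76.3% of all genes), and within MC38 libraries alone 31 (77.6%).

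In CD8 T cells, cycling cells had more of 5 of the 27 genes tested than noncycling cells and less of none, at a background of 13.6% of 9263 genes higher and 12.2% lower, so the share of higher genes was little above that of all genes. Fdps measured 169, 135, 48.1 and 57.4 CPM in cycling cells and 81.7, 64.9, 40.4 and 22.5 CPM in the others. It was higher in all 4 libraries, by 0.95 on the log2 scale (SE 0.17, edgeR adjusted p 0.000995). Stard4 measured 27.9, 29.4, 36.3 and 32.5 CPM against 18.2, 15.5, 14.9 and 14.2 CPM, with no overlap, a log2 fold of 1.04 (SE 0.20, edgeR adjusted p 0.00171). Ebp rose by 0.63, Idi1 by 0.61 and Cyp51 by 0.52. The median over the members tested was 0.22, against -0.07 over all genes. The log2 folds were 0.11 for Hmgcs1, 0.06 for Sqle, 0.03 for Insig1, 0.10 for Srebf2 and -0.22 for Srebf1, and none of these passed. Fasn (0.73, edgeR adjusted p 0.0531) and Scd2 (0.44) did not pass, and Scd1 had too few counts to test. Cycling cells were deeper (medians 13114, 11548, 6836 and 8171 UMIs against 3495, 2654, 3657 and 3781). The cycling gate needs UMIs of division genes, and its part in this depth difference was not tested. Without the Lrrc25-/- MC38 library 2 genes were called.

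Cycling macrophages had more of 12 of the 33 genes and less of 1, at a background of 18.1% of 13112 genes higher and 16% lower. The fatty acid desaturase Fads2 had the largest fold. It measured 4.01, 5.44, 6.30 and 11.2 CPM in cycling macrophages and 2.37, 1.81, 1.75 and 2.14 CPM in noncycling ones, a log2 fold of 1.67 (SE 0.25, edgeR adjusted p 0.0013) with no overlap between the groups. Fdps measured 87.9, 102, 35.7 and 41.4 CPM against 69.3, 61.8, 24.1 and 29.7 CPM, higher in each library, by 0.44. Stard4 rose by 0.65, Idi1 by 0.62, Acat2 by 0.57, Fasn by 0.55, Fads1 by 0.54, Mvk by 0.45, Ebp by 0.42 and Cyp51 by 0.34. Elovl6 rose by 0.68, and its level in noncycling cells was low, between 1.52 and 3.26 CPM across libraries. Sqle was at the threshold (0.27, edgeR adjusted p 0.0498).

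Scd2 was the gene that fell, by 0.40, from 19.2, 19.1, 20 and 14.6 CPM to 14.4, 14.4, 15.5 and 14.4 CPM. Hmgcs1 (0.19), Srebf2 (0.11), Scd1 (0.11), Srebf1 (0.06) and Insig1 (-0.08) did not pass. Of 6 LXR-linked genes 5 were lower, among them Abca1 (-1.08) and Abcg1 (-0.62), and of 9 sterol accessory genes 4 were lower. Lbr, which has a sterol reductase domain and also anchors chromatin to the nuclear envelope, was higher by 1.54. Tumor markers did not rise with cycling in B16F10 (3.21% and 1.63% of the tumor cell level in cycling macrophages, 3.50% and 1.75% in noncycling ones) and were 1.30% and 1.75% against 1.11% and 1.17% in MC38. Median UMIs were 11198, 14564, 6567 and 8680 in cycling cells and 6544, 6653, 4032 and 5740 in the others. With library totals in place of TMM the calls were 18 higher and 1 lower, and without the Lrrc25-/- MC38 library 6 genes were called.

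**Figure D3:**
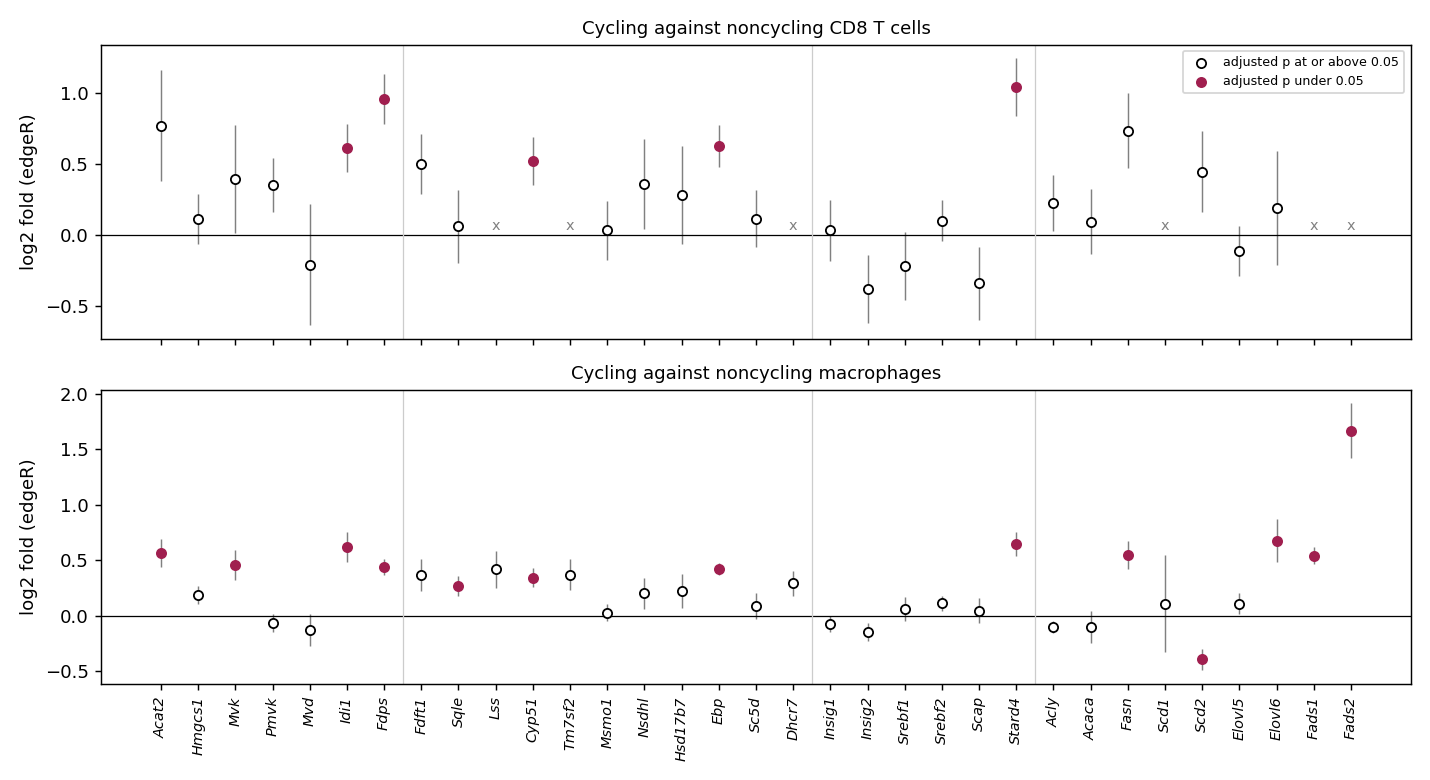
Log2 fold (edgeR, bars 1 SE) of cycling against noncycling CD8 T cells and macrophages for the 33 genes, with crosses for genes not tested. Filled points have an adjusted p under 0.05, 5 in CD8 T cells and 13 in macrophages, and Idi1, Fdps, Cyp51, Ebp and Stard4 are filled in both panels.

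Macrophages gated on Arg1 had less of 6 and more of 2 of the 33 genes than those gated on Cxcl9, at a background of 7.38% of 11958 genes lower and 8.35% higher. Fdps measured 47.0, 35.6, 20.5 and 24.7 CPM in Arg1+ cells and 101, 102, 35.1 and 41.0 CPM in Cxcl9+ cells, lower in each library, by a log2 fold of -0.86 (SE 0.12, edgeR adjusted p 0.00301). Fads2 had a log2 fold of -1.22, Fads1 -0.82, Dhcr7 -0.73, Pmvk -0.63 and Ebp -0.41. Scd2 went the other way and measured 23.0, 22.4, 21.9 and 17.7 CPM in Arg1+ cells against 13.7, 11, 11.9 and 12.6 CPM, with no overlap (log2 fold 0.92, SE 0.14, edgeR adjusted p 0.00363). Insig2 also rose, by 0.75. Sqle (0.36), Fasn (-0.62), Srebf2 (-0.23), Hmgcs1 (-0.11), Insig1 (-0.08), Scd1 (0.02) and Srebf1 (0.00) did not pass.

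The median of the 33 genes was -0.26 between these subsets, against 0.02 over all genes. Of 9 sterol accessory genes 4 were higher in Arg1+ cells (Por, Cyb5r3, Soat1 and Npc2) and 1 was lower (Lbr, -0.88), and of 6 LXR-linked genes 1 was higher (Abca1, 1.26) and 1 lower (Nr1h3, -0.91). Fewer Arg1+ cells were cycling (14.9%, 8.75%, 9.26% and 11% against 34.5%, 32.4%, 20.2% and 17.9%), and the part of cycling in these differences was not tested. With library totals the calls were 2 higher and 11 lower among the 33 genes, and 657 higher and 1647 lower among all genes in place of 998 and 882. Without the WT B16F10 library, or without the Lrrc25-/- MC38 library, 5 genes were called.

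In Treg, set against noncycling CD8 T cells, 3 of 25 genes tested were higher and none lower, at a background of 9.02% of 7862 genes higher and 9.58% lower, so the share was near that of all genes. Elovl6 measured 9.10, 15.0, 41.9 and 25.1 CPM in Treg and 0, 5.64, 7.03 and 10.1 CPM in the CD8 cells. It was higher in each library (log2 fold 1.63, SE 0.43, edgeR adjusted p 0.0143). These levels rest on few molecules, since Treg held 549511, 799580, 262626 and 597510 UMIs in all. Elovl5, an elongase of polyunsaturated fatty acids, measured 32.8, 47.5, 110 and 93.7 CPM against 23.6, 35.3, 36.0 and 39.9 CPM (log2 fold 0.82, SE 0.23, edgeR adjusted p 0.0207), and Cyp51 rose by 0.65. Fasn (0.58), Srebf2 (0.17), Srebf1 (0.12), Insig1 (-0.07), Sqle (-0.15), Hmgcs1 (-0.37) and Scd2 (-1.03) did not pass. Treg numbered 55, 98, 51 and 124 cells, of which 50.9%, 30.6%, 37.3% and 19.4% were cycling. With all CD8 T cells as the reference 2 genes were called, without the Lrrc25-/- MC38 library 1 gene, and with library totals 6 genes.

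Migratory dendritic cells differed from conventional ones in 3 of 26 genes tested, with 2 higher and 1 lower, at a background of 13.7% of 7476 genes higher and 12.6% lower, so the shares lay below those of all genes. Pmvk measured 146, 266, 122 and 162 CPM in migratory cells and 97.3, 108, 78.3 and 117 CPM in conventional ones, and was higher in each library (log2 fold 0.91, SE 0.19, edgeR adjusted p 0.00184). Idi1 rose by 0.90. Fdps went the other way, with 222, 144, 43.5 and 49.6 CPM against 342, 248, 73.8 and 88.7 CPM (log2 fold -0.62, SE 0.15, edgeR adjusted p 0.00711). The median log2 fold of the 6 mevalonate genes tested was -0.02, and that of all genes tested was also -0.02. With library totals the calls were 2 higher and 2 lower, and all genes gave 871 higher and 1258 lower in place of 1023 and 945. Hmgcs1 (0.12), Sqle (0.06), Srebf1 (0.42), Srebf2 (-0.12), Scd2 (-0.22), Insig1 (-0.28) and Fasn (-0.73) did not pass.

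For host genotype, no member was called in any of 5 classes when both Lrrc25-/- libraries were set against both WT libraries with tumor model as a term (edgeR quasi-likelihood test, Benjamini-Hochberg adjusted p under 0.05). The fit has 1 residual degree of freedom, and differences that run opposite ways in the models count as error in it. In simulated counts it recovered 38.8% of genes altered 1.5-fold in macrophages and 32.8% in tumor cells, so shifts of that size can be missed. The fit in CD8 T cells, Treg and migratory dendritic cells, which hold fewer UMIs, was not simulated. Of all genes 0.0% were called in CD8 T cells, 0.0307% in Treg, 0.0% in migratory dendritic cells, 0.0611% in macrophages and 0.252% in tumor cells. At an unadjusted p under 0.05 there were 2 of 31 tested members in CD8 T cells, 2 of 20 in Treg, 1 of 17 in migratory dendritic cells and 0 of 33 in macrophages and in tumor cells. Over all genes the same threshold was passed by 348 of 10578, 285 of 6520, 129 of 6008, 561 of 14726 and 532 of 14694. DESeq2 called 0 members in each class.

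Within a tumor model there is 1 pool per genotype, so values are described without a test. Intervals on ratios are exact binomial at 95% and cover counting error only, not the spread between mice. A gene counted as measured at a mean of at least 10 CPM with 20 or more UMIs expected in the smaller library, and as past the size rule at a fold of at least 1.5 after adding 1 CPM.

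In tumor cells the genotype difference of the sterol arm ran in opposite directions in the models. In MC38 tumor cells the arm summed to 1040 CPM in the WT and 1465 CPM in the Lrrc25-/- pool, a ratio of 1.41 (1.37 to 1.45). All 17 measured genes of the arm were higher in the Lrrc25-/- pool, with a median log2 ratio of 0.49 against -0.04 over all 8240 measured genes. In B16F10 tumor cells it summed to 1722 CPM and 1524 CPM, a ratio of 0.885 (0.876 to 0.894). All 18 genes were lower, with a median of -0.21 against 0.04 over all 6654 measured genes. For the regulators the B16F10 ratio was 1.05 (1.03 to 1.07) and the MC38 ratio 1.19 (1.11 to 1.27). For the fatty acid arm they were 1.02 (1.00 to 1.04) and 1.16 (1.11 to 1.22), while its median log2 ratios were -0.0086 (4 of 9 genes positive) and 0.20, and with TMM scaling -0.11 and 0.22.

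The size rule was passed by 4 genes of the arm in MC38, against 1.09% of all measured genes higher and 1.67% lower. Fdps went from 251 CPM to 409 CPM (ratio 1.63, 1.55 to 1.72), while in B16F10 it went from 568 CPM to 522 CPM (ratio 0.919, 0.904 to 0.935). Acat2 had a ratio of 1.69 (1.42 to 2.02), Pmvk 1.66 (1.37 to 2.0) and Dhcr7 1.64 (1.24 to 2.17). Dhcr7 turned in noncycling MC38 tumor cells, with a log2 ratio of -1.04. In B16F10 the same genes had ratios of 0.821, 0.783 and 0.986. No gene of the arm passed in B16F10, where 2.40% of all measured genes did. Idi1 lay farthest from 1 there with 0.754 (0.714 to 0.796), and Cyp51 nearest with 0.995 (0.958 to 1.03).

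Srebf2 had a ratio of 1.38 (1.24 to 1.54) in MC38 tumor cells and 0.968 (0.924 to 1.01) in those of B16F10. Hmgcs1 had 1.28 and 0.830, Sqle 1.26 and 0.932, and Insig1 1.05 (0.90 to 1.23) and 1.07 (1.04 to 1.11). In the fatty acid arm only Scd2 passed the rule, in MC38, from 59.8 CPM to 96.2 CPM (ratio 1.61, 1.44 to 1.80), with 1.06 in B16F10. Scd1 had ratios of 1.20 (MC38) and 1.01 (B16F10). Fasn had 0.821 (0.675 to 0.994) and 0.981, and Srebf1 0.801 (0.595 to 1.07) and 1.01, so neither followed the sterol arm in MC38.

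**Figure D4:**
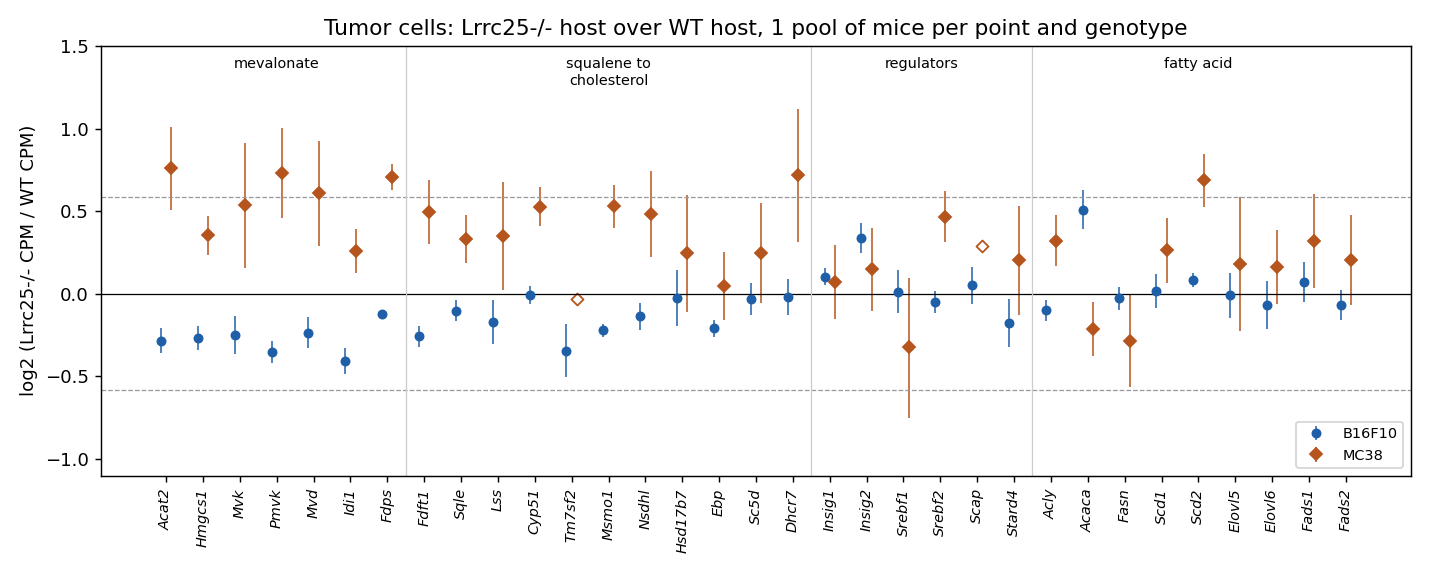
Log2 ratio of tumor cell CPM in Lrrc25-/- over WT hosts for each gene, with 95% counting intervals, 1 pool per genotype and model. Dashed lines mark 1.5-fold and open symbols genes below the measuring floor. The measured sterol arm genes of MC38 lie above 0 and those of B16F10 below it.

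Depth and cell quality moved with these values in B16F10. Its Lrrc25-/- tumor cells had a median of 17020 UMIs, a mitochondrial share of 1.31% and 48.8% cycling cells, against 25394 UMIs, 0.293% and 68.2% in the WT pool. In MC38 the values were 19176 UMIs, 2.99% and 67.1% against 16723 UMIs, 3.14% and 68.0%. Among tumor cells with at least 10000 UMIs the summed ratios were 0.890 in B16F10 and 1.40 in MC38, and among cycling tumor cells 0.897 and 1.35. The genotypes still differed in the selected B16F10 cells. The deeper cells had medians of 27730.5 UMIs (WT) and 33382 UMIs (Lrrc25-/-) and mitochondrial shares of 0.255% and 0.699%. The cycling cells had 29214 and 34413 UMIs and shares of 0.254% and 0.817%. The part of depth, mitochondrial share and cycling in the ratios was not tested. In noncycling tumor cells the median log2 ratio was -0.06 in B16F10, from 321 and 478 cells, and 0.75 in MC38, from 90 and 50 cells.

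In CD8 T cells the summed sterol arm was lower in the Lrrc25-/- pool of both models, at 0.877 times the WT sum in B16F10 (interval 0.812 to 0.948) and 0.766 times in MC38 (0.710 to 0.826). Idi1 measured 59.0 CPM in the WT and 36.5 CPM in the Lrrc25-/- pool of B16F10 (ratio 0.619, 0.477 to 0.806). In MC38 it measured 50.1 CPM and 22.4 CPM (ratio 0.448, 0.346 to 0.577). It passed the size rule in both models, and its log2 fold in the fit over both was -0.96 (SE 0.19, edgeR unadjusted p 0.00279, adjusted p 1.0). In B16F10, Sqle, from 19.7 CPM to 10.8 CPM (ratio 0.548, 0.341 to 0.887), and Mvd, with a ratio of 0.501 (0.289 to 0.871), also passed, at a background of 4.86% of genes lower and 10.4% higher. In noncycling cells Sqle turned, with a log2 ratio of 0.20. In MC38, Hmgcs1, from 55.2 CPM to 36.2 CPM (ratio 0.655, 0.527 to 0.814), and Fdft1, with a ratio of 0.639 (0.444 to 0.917), passed, at a background of 5.61% lower and 4.57% higher.

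The medians of the measured sterol genes in CD8 T cells were -0.09 in B16F10 (12 genes, all genes 0.11) and -0.38 in MC38 (11 genes, all genes -0.05). With stricter marker gates the B16F10 median was 0.058, on the other side of 0. Tumor markers in CD8 T cells went from 3.14% to 1.97% of the tumor cell level in B16F10 and from 1.71% to 1.44% in MC38, and their part in the lower sums was not tested. The fatty acid arm had summed ratios of 1.10 (0.933 to 1.31) and 0.997 (0.892 to 1.11) and the regulators 1.05 and 0.941. Cycling CD8 T cells fell from 22.9% to 19.2% in B16F10 and from 28.7% to 16.4% in MC38. Idi1 had ratios of 0.642 (0.386 to 1.09) and 0.418 (0.269 to 0.646) in noncycling cells and 0.663 (0.464 to 0.952) and 0.530 (0.353 to 0.786) in cycling cells. In noncycling CD8 T cells alone the summed sterol ratio was 0.908 (0.780 to 1.06) in B16F10 and 0.712 (0.629 to 0.806) in MC38, and in cycling ones 0.917 (0.822 to 1.02) and 0.888 (0.787 to 1.00). In Treg the sterol sum gave 0.867 (0.760 to 0.990) and 0.724 (0.574 to 0.917), from 408 and 515 UMIs in B16F10 and 119 and 196 UMIs in MC38. Cycling Treg fell from 50.9% to 30.6% in B16F10 and from 37.3% to 19.4% in MC38. Tumor markers in Treg went from 2.62% to 1.49% of the tumor cell level in B16F10 and from 0.520% to 1.20% in MC38. The part of cycling and tumor markers in the Treg sums was not tested. In B16F10 Treg, Pmvk was higher (ratio 1.57) and Fdps (0.614) and Msmo1 (0.615) lower, at a background of 20.3% of genes past the rule. No sterol gene was measured in MC38 Treg.

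In macrophages 1 gene stood out. Pmvk, the phosphomevalonate kinase, measured 42.8 CPM in the WT and 79.9 CPM in the Lrrc25-/- pool of MC38, a ratio of 1.87 (1.76 to 1.98), and 40.5 CPM and 33.2 CPM in B16F10, a ratio of 0.821 (0.757 to 0.891). It was the one measured sterol gene past the size rule in MC38 macrophages, where 0.642% of all measured genes were higher and 2.49% lower, and none passed in B16F10, where 3.39% did. Pmvk was higher in each MC38 subset too, with ratios of 2.03 (1.83 to 2.26) in Arg1+, 1.80 (1.58 to 2.05) in Cxcl9+ and 1.99 (1.63 to 2.46) in Mrc1+ macrophages, and in monocytes the level went from 38.6 CPM to 87.8 CPM. In B16F10 the subset ratios were 0.783, 0.916 and 0.857. The mix of subsets differed with genotype in MC38, where Arg1+ cells made up 3749 of 8168 WT macrophages and 2080 of 7536 Lrrc25-/- macrophages. With a common mix of subsets the log2 ratio of Pmvk was 0.78 in place of 0.89. In MC38 CD8 T cells Pmvk measured 21.8 CPM and 26.4 CPM (ratio 1.21, 0.894 to 1.65).

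In MC38 the higher sterol sum from the pooled UMIs of all macrophages rested on Pmvk. The summed ratio was 1.14 (1.11 to 1.16), and without Pmvk the other 17 genes had a summed ratio of 1.01. The median log2 ratio of the 8 measured genes was 0.01, but 0.24 as a mean of per-cell CPM. In B16F10 the ratios were 0.986 with Pmvk and 1.01 without it. For Arg1+ macrophages the B16F10 sum gave 0.814 (0.752 to 0.882) and the MC38 sum 1.16 (1.11 to 1.20), and without Pmvk 0.818 and 1.03. Melanoma markers in B16F10 Arg1+ cells went from 3.51% of the tumor cell level (WT) to 1.80% (Lrrc25-/-), and their part in this difference was not tested. Mrc1+ macrophages of B16F10 ran the other way, with a summed ratio of 1.09 (1.06 to 1.13), 1.12 without Pmvk, and 11 of 14 measured genes higher. In MC38 Mrc1+ macrophages the ratio was 1.09 with Pmvk and 0.952 without it. In B16F10 Arg1+ cells Mvd (ratio 0.436), Sqle (0.459) and Fads1 (0.548) were lower, at a background of 6.97% past the rule. In MC38 Mrc1+ macrophages Idi1 (0.429), Cyp51 (0.654) and Insig1 (0.646) were lower beside the higher Pmvk, at a background of 8.14%. Idi1 was also lower in MC38 Cxcl9+ macrophages (0.604, background 5.22%), and in B16F10 Cxcl9+ cells Sqle was lower (0.615, background 8%). In MC38 Arg1+ cells, where 2.96% of genes passed, Pmvk was the one sterol gene past the rule.

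In migratory dendritic cells the sterol sum of the Lrrc25-/- pool was 0.847 times that of WT in B16F10 (0.741 to 0.971). In MC38 it was 1.16 times (0.974 to 1.38). Few genes were measured there, and the medians changed sign with the selection of cells. The B16F10 median log2 ratio was -0.27, and 0.19 in noncycling cells, and the MC38 median was 0.19, and -0.57 with stricter gates. Tumor markers went from 4.71% to 2.34% of the tumor cell level in B16F10 and from 1.19% to 3.07% in MC38, and their part was not tested. In B16F10, Pmvk was higher (ratio 1.82, 1.34 to 2.53) and Fdps (0.648) and Msmo1 (0.620) lower, at a background of 26.3% past the rule, and in MC38 Idi1 went from 100.0 CPM to 31.3 CPM (ratio 0.313, 0.183 to 0.524), at a background of 15.7%.

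**Figure D5:**
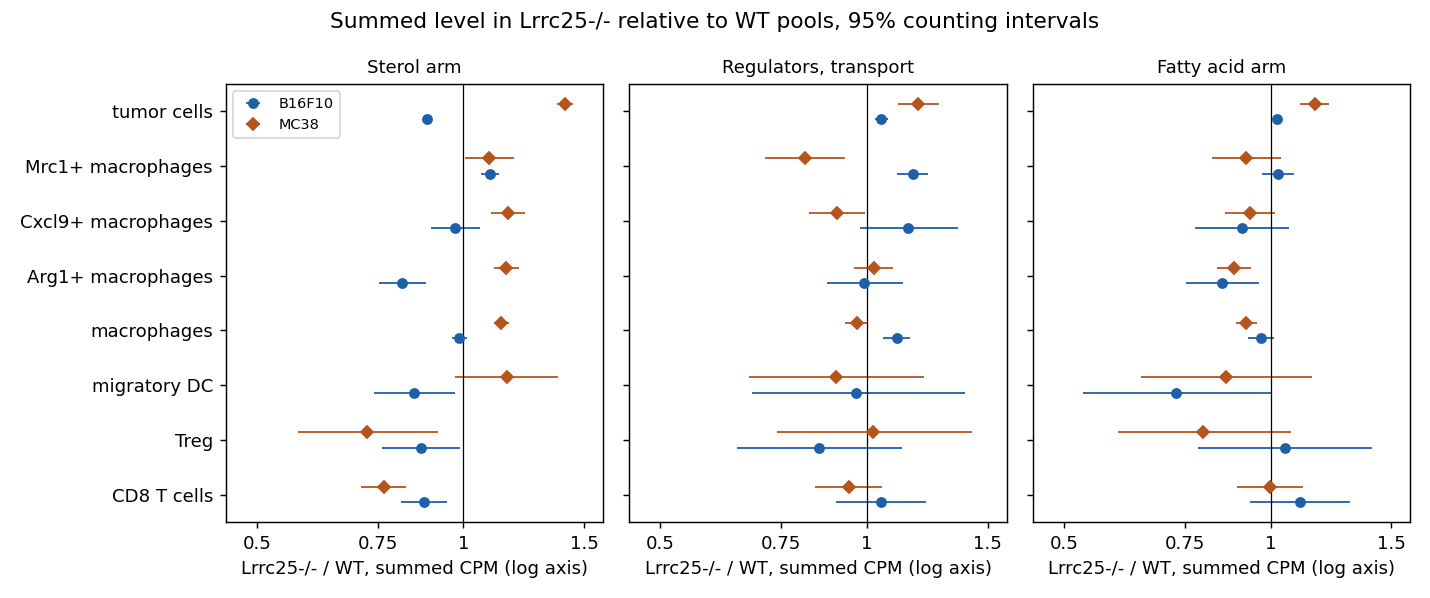
Ratio of summed CPM in Lrrc25-/- over WT pools for each arm, cell class and model on a log axis, with 95% counting intervals. The sterol arm of tumor cells lies at 0.885 in B16F10 and 1.41 in MC38, and that of CD8 T cells below 1 in both models.

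Fdps and Acaca separated the tumor models in each of 9 classes (tumor cells, CD8 and CD4 T cells, Treg, NK cells, monocytes, macrophages, conventional and migratory dendritic cells), and both were singled out after their values were seen. Fdps was higher in both B16F10 libraries than in both MC38 libraries in all 9. In CD8 T cells, for instance, it measured 135 and 94.3 CPM against 43.7 and 33.2 CPM. Acaca was lower in both B16F10 libraries in all 9, with 3.93 and 13.4 CPM against 39.2 and 39.1 CPM in CD8 T cells. The share of all genes that separate the models in all 9 classes was not computed, so how unusual these genes are cannot be said. By a stricter rule, a gap of at least 1.5-fold between the nearest libraries, 3 of 22 measured members were higher in B16F10 CD8 T cells (Fdps, Insig1 and Pmvk) and 1 in MC38 (Acaca). Among all genes measured there, 10.4% were at least 1.5-fold higher in both B16F10 libraries and 38.3% in both MC38 libraries. In macrophages 2 of 18 measured members (Ebp and Fdps) were higher in B16F10 and 4 (Acaca, Acly, Cyp51 and Srebf2) in MC38. The shares of all genes measured in macrophages were 14.6% and 38.4%. Tumor line, day of harvest and library cannot be told apart in this comparison.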

How the data were processed

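The data are raw UMI counts per gene and cell barcode, as deposited by the authors for 4 single-cell libraries. Per the labels' protocols the SeekOne Digital Droplet 3' kit was used, and per the submitters' processing notes the build was mm10. Which aligner, counter and cell caller were used is not given in the sources used here. A barcode was kept if it had 300 genes or more, 500 UMIs or more and a mitochondrial share of 20% or less, and the cells that Scrublet (scanpy 1.11.5) scored highest, 0.5% per 1000 cells, were removed as doublets. Cells were classed by marker gates. CD8 T cells needed T cell receptor genes and Cd8a or Cd8b1 without Cd4 or Foxp3, Treg needed Foxp3, and macrophages C1qa, C1qb and C1qc. Tumor cells lacked Ptprc and carried melanoma genes (Pmel, Mlana, Tyr, Tyrp1 and Dct) or, for MC38, Krt8, Krt18, Sox9, Tnnt2 and Crabp2, of which the last 3 came from earlier results of these data. Cycling cells had at least 3 UMIs of Mki67, Top2a, Cdk1, Ccna2, Birc5 and Ube2c, and noncycling cells 0.

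Counts were summed per class and library and tested with edgeR 4.0.16 (R 4.3.3), with TMM scaling, filterByExpr, the quasi-likelihood test and Benjamini-Hochberg adjustment over all genes tested. The library was a block in class comparisons, since both classes come from the same library. Genotype over both models was fitted with model as a term, and within a model only ratios were computed. DESeq2 1.42.0 was an alternative. Some of the fits were checked on simulated counts. At 1.5-fold the genotype fit recovered 38.8% of altered genes in macrophages and 32.8% in tumor cells, and at 2-fold 94% and 97%. The fit of tumor cells against macrophages recovered 28.4% at 1.5-fold and 68.7% at 2-fold. Of 1000 unaltered genes, 3 to 4 were called in the genotype fits and 16 to 19 in the class fits checked. The genes always given are Hmgcs1, Sqle, Insig1, Srebf1, Srebf2, Fasn, Scd1 and Scd2, with up to 10 called members per comparison and up to 5 members past 1.5-fold per class and model. The members, the lists and the gates were chosen with earlier results of these data known.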

Additional observations from a re-analysis of the deposited data

Results flagged for a closer look

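In 3 of 24 combinations of gene arm and cell class the genotype ratio ran in opposite directions in the models, with both counting intervals clear of 1. Each model has 1 pool per genotype, so these differences between models were not tested. In tumor cells the summed sterol arm had an Lrrc25-/- to WT ratio of 0.885 in B16F10 and 1.41 in MC38. In Arg1+ macrophages the same arm had ratios of 0.814 and 1.16, and without Pmvk 0.818 and 1.03. In Mrc1+ macrophages the regulators had ratios of 1.17 and 0.813. The part of depth, mitochondrial share and cycling share, whose values stand beside the tumor cell ratios above, was not tested.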

How the results depend on the processing

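The pairing comes from the design, since both classes of a comparison are cells of the same library. Without the library block the counts of called members were 17 for tumor cells against macrophages, 1 for cycling macrophages and 0 each for cycling CD8 T cells, Arg1+ against Cxcl9+ macrophages, Treg and migratory dendritic cells. DESeq2 called 3 members in cycling CD8 T cells and 1 in Treg. Stricter gates called 6 in migratory dendritic cells, and no filter on low counts called 1 for genotype in CD8 T cells. Library totals in place of TMM, an alternative added after seeing the data, called 13 in Arg1+ macrophages and 6 in Treg. Leaving out 1 library at a time gave 20 to 22 calls in tumor cells, 2 to 6 in CD8 T cells, 6 to 11 in macrophages, 5 to 7 in Arg1+ macrophages, 1 to 2 in Treg and 3 in migratory dendritic cells. The genotype fit has no residual degree of freedom without a library, so this was not run there.

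Within models, the median log2 ratio of the sterol arm in B16F10 tumor cells was -0.32 with TMM, -0.26 as a mean of per-cell CPM and -0.062 in noncycling cells, and in MC38 tumor cells 0.75 in noncycling cells. As a mean of per-cell CPM, MC38 macrophages gave 0.24 for the sterol arm and -0.0088 for the fatty acid arm. Among noncycling cells Sqle in B16F10 CD8 T cells turned to 0.20 and Dhcr7 in MC38 tumor cells to -1.04. The cause of these shifts was not tested. The alternatives by tumor model, cycling cells, UMIs per cell and CD8 reference were also added after seeing the data. Small classes (Treg, dendritic cells) limit the genes measured.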
